A study of Rattus norvegicus with 20 samples.

Results

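The cytosolic ribosomal protein genes encode the proteins that, with ribosomal RNA, build the ribosome of the cytosol. They were examined in RNA-seq of the rat supraoptic nucleus (SON), the hypothalamic nucleus whose magnocellular neurones make the antidiuretic hormone vasopressin and oxytocin. Members were taken by gene symbol: names in Rpl or Rps followed by a digit, the stalk genes Rplp0, Rplp1 and Rplp2, and Rpsa. S6 kinase names and names marked as pseudogenes were left out. Of the 32402 genes in the tables, 116 names had this form; 10 kinases and 10 pseudogene names were removed, and 96 genes remained. Of these, 80 had a mean normalised count of at least 10 and make up the members described here, 46 with large subunit names and 34 with small subunit names. The 80 hold 67 genes named as structural proteins, 12 named as paralogues or like genes, and Rps19bp1, which the name rule takes in although it encodes a binding partner and not a subunit of the ribosome.

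The study compared male Wistar Han rats of 2 ages, adult (3 months) and aged (18 months), that were either euhydrated (EH) with free access to water or dehydrated (DH), with 5 rats in each of the 4 groups. GEO's labels give 2 days of dehydration, and the study's methods give a longer time. Each library was made from polyadenylated RNA of the SON of 1 rat. The study had published the adult libraries before, and its methods state that rats of both ages were handled side by side and that their RNA was sequenced together. The values used here are the normalised counts in the authors' tables of 3 comparisons: ageing, which sets aged EH beside adult EH rats, and the DH response of each age, adult DH and aged DH, each relative to the EH rats of its own age. The difference between the ages is the aged DH log2 fold change (LFC) less the adult DH LFC.

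Each ribosome has a large subunit, which forms peptide bonds, and a small subunit, which reads the messenger RNA. The proteins of both are needed in matched amounts, and cells keep their supply in step, in part through translation. The messenger RNAs of these genes typically begin with a run of pyrimidines, the terminal oligopyrimidine (TOP) motif. Through this motif mTOR signalling governs how actively these messenger RNAs are translated. Magnocellular neurones are highly secretory cells that enlarge when the body lacks water, and they make large amounts of peptide precursors.

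Runs of pyrimidines were looked for at the listed start of each gene. They could include bases before that start, so they do not show the motif of the messenger RNA itself. RefSeq start sequences (build GRCr8) were matched to 60 of the 80 members by gene identifier, 59 with 1 listed start and 1 with 2. The 2 Rpl36al genes among the members were matched to the same entry, which the counts below hold once for each of them. A run of at least 6 bases of C or T that covered the first base of the gene was present at 32 of 61 member starts (52.5%), against 8.26% of all 33469 gene starts listed. Among starts of structural members it was present at 31 of 51 and among those of paralogues at 1 of 9, that of Rps4y2. The letters CTTTCC were found on the gene's strand within 15 bases of the start at 24.6% of member starts and 1.24% of all starts, and on the opposite strand at 1.64% and 1.3%; they overlap the pyrimidine run wherever both cover the same bases. The windows of 30 bases printed here, 15 before the start and 15 from it, show the members on which the comparisons below turn, with the run in capitals. Rps27, Rps15, Rpl10, Rps18 and Rps21 were called lower in adult DH, and Rps10 was not called.
Rps27 (chr2:177964592-177964621, minus strand): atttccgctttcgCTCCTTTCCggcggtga
Rps15 (chr7:10068101-10068130, minus strand): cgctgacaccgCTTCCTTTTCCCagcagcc
Rpl10 (chrX:157205835-157205864, plus strand): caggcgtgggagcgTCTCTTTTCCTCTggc
Rps18 (chr20:4933730-4933759, plus strand): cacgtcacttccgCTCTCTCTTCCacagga
Rps21 (chr3:187724023-187724052, plus strand): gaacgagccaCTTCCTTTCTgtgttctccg
Rps10 (chr20:5700730-5700759, minus strand): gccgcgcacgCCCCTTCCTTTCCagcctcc
No run of this length covered the listed start in the next 3 windows. Rpl3 had the lowest p-value of all members in adult DH, and Rpl39l and Rpl10l are paralogues whose fitted levels went the other way without passing the test.
Rpl3 (chr7:113507976-113508005, minus strand): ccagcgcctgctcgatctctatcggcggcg
Rpl10l (chr6:90281968-90281997, minus strand): tttggtctccattttgctgctggcggtgag
Rpl39l (chr10:5966607-5966636, minus strand): actgccaggccgtcccgctatcctggtgtg
A listed start can differ by a few bases from the one used in this tissue, and a window without the letters says nothing about the gene's translation. Of the 31 structural members with a run, 17 were called lower in adult DH (median LFC -0.14), and of the 19 without, 9 were called lower (median LFC -0.12).

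Avp and Oxt, the hormone genes of magnocellular neurones, averaged 163773 and 79666 normalised counts in adult EH rats. They mark these neurones, and that the tissue was SON rests on the study's dissection. Whole read totals, which could be recovered for the adult DH table, ran from 24268398 to 28491926 per rat; raw totals of the aged libraries are not given in the tables, whose normalised totals ran from 27801540 to 28689164. Members took 1.21% ± 0.03 (SD, n = 5) of all normalised counts in adult EH rats. Markers of other cells were present in all groups. Of 6 astrocyte and 4 endothelium markers, none was called in either DH comparison. Of 4 choroid plexus markers, Clic6 was called lower in adult DH (LFC -0.59, limma adjusted p = 0.00703), where 4.99% of all genes were called lower. None of the 4 was called in aged DH. The summed level of 6 oligodendrocyte markers ran from 252853 to 371166 in adult EH, from 241590 to 309009 in adult DH, between 235216 and 285387 in aged EH rats and between 258285 and 307511 in aged DH rats. Their median LFC was -0.17 in adult DH, with 5 of 6 below 0, and 0.12 in aged DH, with all 6 above 0. Of the 6, only Cnp was called in adult DH, lower (LFC -0.27, limma adjusted p = 0.0169), where 4.99% of all genes were called lower. Only Mobp was called in aged DH, higher (LFC 0.35, limma adjusted p = 0.00784), where 4.05% of all genes were called higher. In ageing 4 of the 6 were called lower, where 5.99% of all genes were called in either direction. For 5 glutamatergic forebrain markers the aged EH sums, 1665 to 4045, all exceeded the aged DH sums, 849 to 1598. Of the 5, 3 were called lower in aged DH, where 3.25% of all genes were called lower. For 2 of the 5 every aged DH rat lay below every aged EH rat, against 2.93% of all genes. Of 6 magnocellular markers, only Scg2 (LFC 0.96) and Avp (LFC 0.48) were called in adult DH, both higher, where 7.67% of all genes were called higher. Oxt (LFC 0.17) was not called. In aged DH 1 of the 6 was called higher and 1 lower, where 4.05% of all genes were called higher and 3.25% lower. The magnocellular markers thus did not move as 1. The summed level of 3 red blood cell markers was 21175 to 41291 in adult EH and 12362 to 30114 in adult DH (median LFC -0.75). None of the 3 was called in limma, and all 3 were lower at an unadjusted p under 0.05, a threshold passed by 26.9% of all genes there. In aged DH their median LFC was -0.83 and 1 was called lower, where 3.25% of all genes were called lower. The sum of 6 microglia markers was 5545 to 6279 in adult EH and 5280 to 5978 in adult DH (median LFC -0.14), with none called in limma and 4 lower at an unadjusted p under 0.05. The part of these shifts in the results below was not tested. In bulk tissue, fewer cells of a type and less RNA per cell cannot be told apart.

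Ribosomal protein transcripts of both subunits were lower by small amounts in dehydrated than in euhydrated adult rats. Of the 80 members, 37 were called lower (adjusted p under 0.05 in limma, fitted across all genes) and none higher; across all 15280 genes tested, 4.99% were called lower and 12.7% in either direction. The calls comprised 17 of 46 large subunit names and 20 of 34 small subunit names. The LFC was below 0 for 75 of 80 members, against 52.2% of all genes, and the median was -0.10 for large and -0.14 for small subunit names beside -0.007 over all genes tested. Called members had LFCs between -0.31 (Rps27) and -0.09 (Rpl11). The first fell by 19.2% and the other fell by 6.33%. All 5 DH rats lay below all 5 EH rats for 28 members, 13 large and 15 small, against 4.08% of all genes. The standard errors of members were smaller than those of the other genes, with a median of 0.040 against 0.066 over all genes tested, so changes of this size passed more readily in them.

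**Figure D1:**
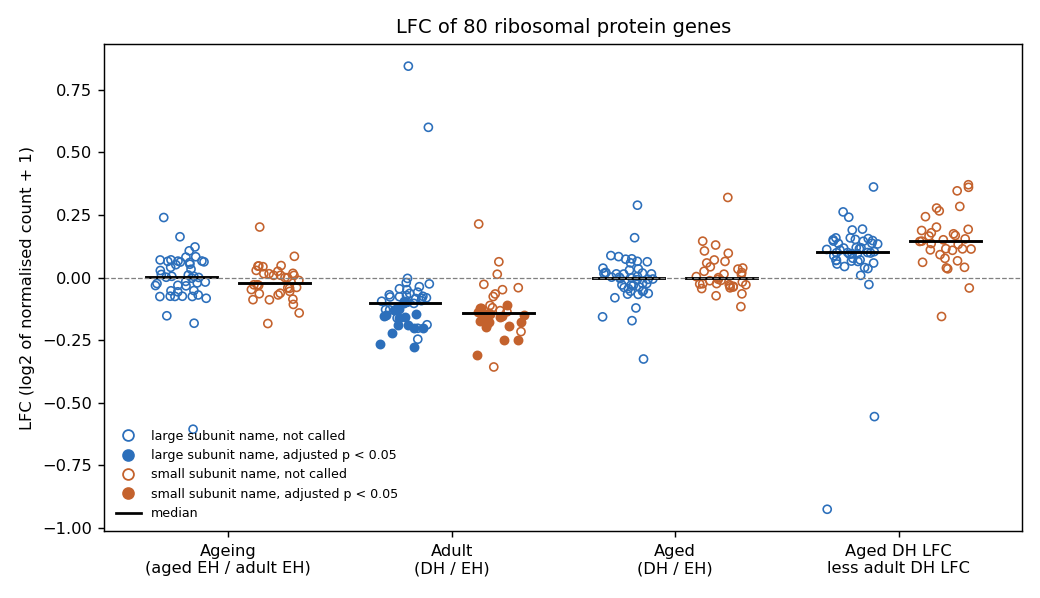
LFC (vertical axis, log2 of the normalised count plus 1) of the 80 members in ageing, adult DH, aged DH and the difference between the ages, with large subunit names in blue, small in orange, filled points for adjusted p under 0.05 and black bars for medians. Filled points occur only in adult DH, all below 0, where the medians are -0.10 and -0.14.

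The share of all counts that lay on members was 1.20, 1.21, 1.25, 1.23 and 1.18% in the adult EH rats and 1.04, 1.12, 1.14, 1.06 and 1.104% in the adult DH rats. Every adult DH rat was below every adult EH rat, and the DH mean differed from the EH mean by -10.2% of the EH level. In the aged tables the share was 1.283, 1.24, 1.17, 1.16 and 1.16% in EH rats and 1.14, 1.24, 1.18, 1.23 and 1.09% in DH rats, which overlapped, and the corresponding difference was -2.46%. The aged rats were spread more widely than the adult ones, with SDs of 0.057 in EH and 0.063 in DH against 0.029 and 0.043. These shares were not tested, since they are scores over chosen members.

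**Figure D2:**
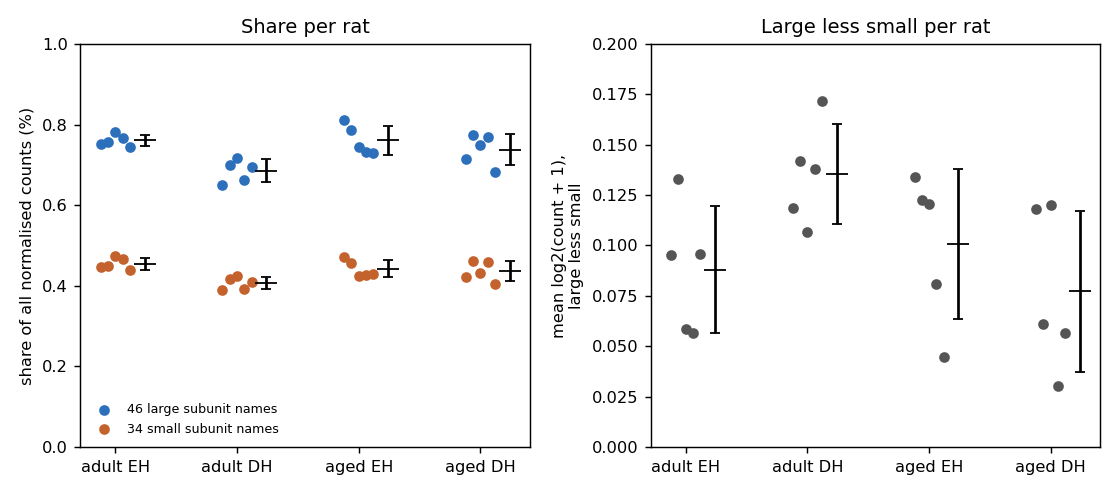
Left, share of all normalised counts (%) on the 46 large (blue) and 34 small (orange) subunit names in each rat; right, mean log2 value of large less that of small subunit names in each rat; bars give mean and SD of 5 rats. Adult DH rats lie between 1.04 and 1.14% in all and adult EH rats between 1.18 and 1.25%, while the aged groups overlap.

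Large subunit proteins around the peptidyl transferase centre and the exit tunnel included the member with the lowest p-value. Rpl3, which reaches towards that centre, had normalised counts of 9855, 9661, 9995, 9634 and 10073 in the adult DH rats and 11822, 11876, 12448, 11523 and 11570.3 in the adult EH rats. The groups were separated by a wide gap, and its level fell by 16.9% (LFC -0.27, SE 0.028, limma adjusted p = 3.57e-05). Rpl4, whose loop lines the exit tunnel, read 10343, 11094, 11399.8, 11039.8 and 11227 in the adult DH rats and 12476, 12819, 13036, 12652 and 12299 in the adult EH rats. Again no rat overlapped (LFC -0.20, SE 0.03, limma adjusted p = 0.000756). Rpl10, which joins the large subunit late in its assembly, read 5469.6, 5928, 6034, 5774 and 6047 in the adult DH rats and 6634, 6728, 7299, 6665 and 6775 in the adult EH rats (LFC -0.22, SE 0.036, limma adjusted p = 0.00119). Adult EH replicate 4 stood above the other EH rats, and all 5 EH rats exceeded every DH rat. Rpl27a (LFC -0.16, SE 0.027, limma adjusted p = 0.00223) and Rpl24, which forms a bridge to the small subunit (LFC -0.20, SE 0.037, limma adjusted p = 0.00328), were also lower without overlap.

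Rpl5 and Rpl11, which bind the 5S ribosomal RNA and, when free, the p53 regulator Mdm2, were called lower with LFCs of -0.12 (SE 0.030, limma adjusted p = 0.0175) and -0.09 (SE 0.024, limma adjusted p = 0.0215). The stalk that recruits elongation factors was represented by Rplp0 and Rplp1, as Rplp2 was listed at 0 in every adult rat. Rplp0 was called lower (LFC -0.10, SE 0.027, limma adjusted p = 0.031), with no overlap between the groups. The call was lost in 6 of the 10 fits that each left out 1 rat. Rplp1 did not pass the test (LFC -0.07, SE 0.037, limma adjusted p = 0.251).

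Small subunit names had the larger median fall and the larger called share, 58.8% against 37%. Rps27, a zinc finger protein of the 40S subunit, read 2248, 2271, 2425, 2155 and 2175 in the adult DH rats and 2814, 2781, 2836, 2970.4 and 2561 in the adult EH rats. It fell by 19.2% (LFC -0.31, SE 0.043, limma adjusted p = 0.000396), the lowest LFC of any called member. Rps15, which lies near the decoding region, read 3787, 3961, 3911, 3736 and 3864 in the adult DH rats and 4319, 4362, 4562, 4383 and 4279 in the adult EH rats (LFC -0.19, SE 0.028, limma adjusted p = 0.000781). The groups did not overlap. Rps29, a small zinc-binding protein of the head of the subunit, read 2902, 3234, 3095, 2860.1 and 3003 in the adult DH rats and 3639, 3425, 3445, 3531 and 3243 in the adult EH rats. The lowest EH rat was just above the highest DH rat (LFC -0.20, SE 0.04, limma adjusted p = 0.00604).

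Other small subunit members with low p-values were Rps20, at the entry of the messenger RNA channel (LFC -0.25, SE 0.044, limma adjusted p = 0.00244), and Rps23, at the decoding centre (LFC -0.19, SE 0.035, limma adjusted p = 0.00283). Rps18 (LFC -0.16, SE 0.03, limma adjusted p = 0.00347), Rps7 (LFC -0.14, SE 0.029, limma adjusted p = 0.00593) and Rps16 (LFC -0.16, SE 0.034, limma adjusted p = 0.00602) were lower by similar amounts. Rps21 had a low LFC of -0.25 with a wider error (SE 0.065, limma adjusted p = 0.0224) and overlapping groups. Rpsa, which is also known as a laminin receptor, was called near the threshold (LFC -0.11, SE 0.034, limma adjusted p = 0.0481), and 9 of the 10 fits with 1 rat left out lost the call. Across the 37 called members, 25 were called in each of the 10 fits with 1 rat left out, 19 were called with the RNA integrity number as a covariate, 24 with moderation without a trend and 16 in every alternative run. The RNA integrity numbers listed by the study were equal in the adult EH rats and equal or lower in the adult DH rats.

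**Figure D3:**
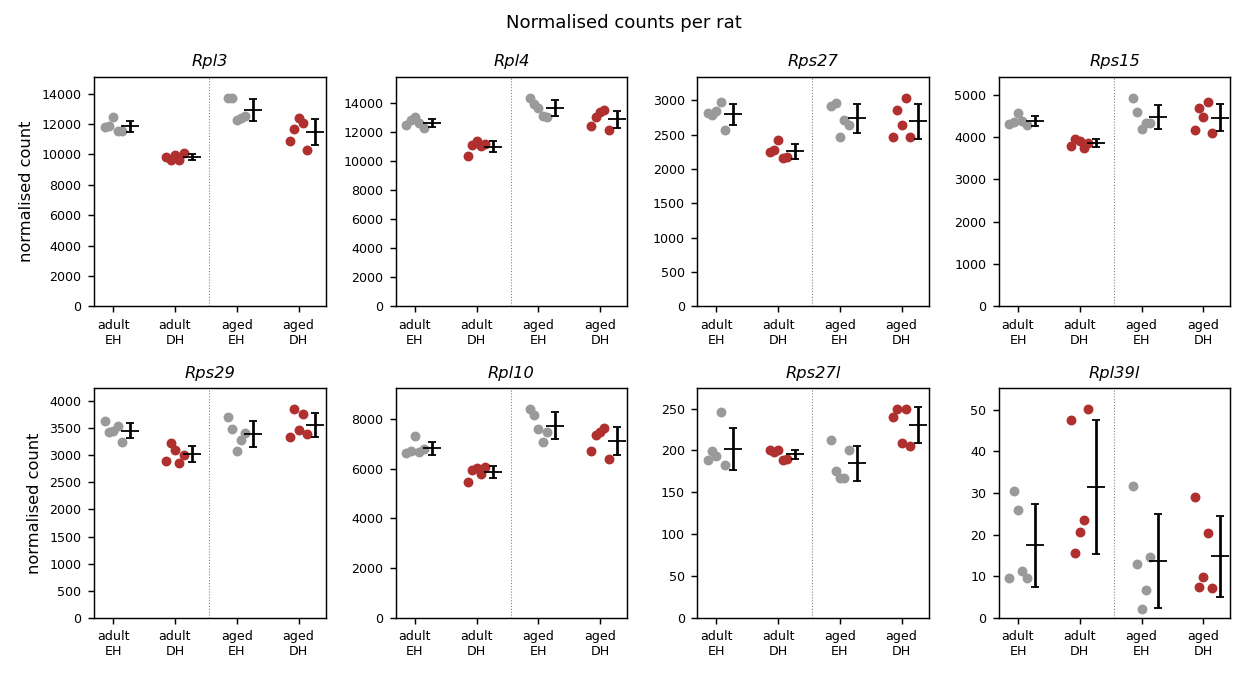
Normalised counts (vertical axes, from 0) of 8 members in each rat, EH in grey and DH in red, with mean and SD of 5 rats; adult and aged values, parted by the dotted line, were normalised in separate tables. Rpl3, Rpl4, Rps27, Rps15, Rps29 and Rpl10 show adult DH rats below all adult EH rats, whereas the aged groups overlap; Rps27l is higher in most aged DH rats and Rpl39l is at low counts throughout.

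Few structural members departed from this pattern. Rps10, of the 40S head, read 911, 954, 1028, 995 and 989 in the adult DH rats and 915, 895, 1083, 942 and 1005 in the adult EH rats, fully overlapping, and its LFC was 0.01 (SE 0.055, 95% interval -0.10 to 0.13, limma adjusted p = 0.91). It was the only one of the 67 structural members with an LFC above 0. Rpl23 (-0.03) and Rps13 (-0.03) were the next nearest to 0, and neither passed the test.

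Of the 12 paralogues and like genes, 2 were called (16.7%), both lower, where 4.99% of all genes were called lower and 12.7% in either direction. Their LFC was below 0 in 9 of 12, against 52.2% of all genes. The Rpl36al gene ENSRNOG00000011494 was called (LFC -0.28, SE 0.05, limma adjusted p = 0.00261), with counts of 866, 1031, 1003, 897 and 936 in the adult DH rats and 1189, 1122, 1171, 1146 and 1102 in the adult EH rats. Another Rpl36al gene, ENSRNOG00000031022, had an LFC of -0.003 (SE 0.046, limma adjusted p = 0.973). Reads of near-identical copies can be split between such entries, so these 2 values are uncertain. The Rps10l1 gene ENSRNOG00000052141 was called (LFC -0.15, SE 0.045, limma adjusted p = 0.0439), and 8 of the 10 fits with 1 rat left out lost it; the other, ENSRNOG00000030106, was not (LFC -0.22, limma adjusted p = 0.167).

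The members with the highest fitted LFCs in adult DH were paralogues at low counts. Rpl39l, a paralogue of Rpl39 best known from the testis, read 47.4, 15.5, 20.6, 23.6 and 50.1 in the adult DH rats and 9.62, 30.5, 26, 11.1 and 9.65 in the adult EH rats (LFC 0.84, SE 0.4, limma adjusted p = 0.191). Rpl10l, the retrogene of Rpl10 with a testis role, read 20.3, 61.1, 42.2, 26.9 and 59.7 in the adult DH rats and 46.2, 29.5, 14.8, 16.2 and 29.9 in the adult EH rats (LFC 0.60, SE 0.35, limma adjusted p = 0.301). In both, rats of the 2 groups overlapped and the test was not passed. Rps4y2, a copy of Rps4, had an LFC of 0.21 (SE 0.13, limma adjusted p = 0.333). The lowest small subunit LFC, that of Rps18l1, was -0.36 at similarly low counts (SE 0.24, limma adjusted p = 0.378). Rpl31l4 (-0.25), Rpl35a ENSRNOG00000032303 (-0.20), Rpl7l1, a biogenesis factor (-0.04), Rpl22l1 (-0.02) and Rps27l (-0.04) also missed the threshold.

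The contrast between the subunits was smaller than the shift they had in common. The median LFC of large less small subunit names was 0.04 in adult DH. The per-rat mean log2 of large less small subunit names was 0.10, 0.13, 0.06, 0.06 and 0.10 in adult EH rats, and 0.12, 0.14, 0.11, 0.14 and 0.17 in adult DH rats. The DH mean was higher by 0.05, while the rats of the groups overlapped. This score weighs every gene alike, among them the low-count large subunit paralogues Rpl39l (LFC 0.84) and Rpl10l (LFC 0.60). How far those paralogues carry the 0.05 was not tested. For structural names with 1 entry each, the median LFC was -0.10 for 37 large and -0.14 for 28 small. In aged rats the per-rat score ran from 0.04 to 0.13 in EH and from 0.03 to 0.12 in DH. Its mean was lower by 0.02 in DH, and the median LFC of large less small subunit names was 0.001. The difference between the subunits is given without a test.

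In aged rats the same genes gave no call. None of the 80 members passed the limma test in aged DH, with 4 at an unadjusted p under 0.05, against 7.29% of 15346 genes called and 21.4% at that unadjusted threshold. The medians were -0.003 for large and -0.004 for small subunit names, and 42 LFCs were below 0 and 38 above, where 51% of all genes were below 0. This split rested on single libraries: 59 were above 0 without aged DH replicate 6 and 52 without aged EH replicate 1, but 27 without aged DH replicate 5 or aged EH replicate 6. The 4 at an unadjusted p under 0.05 became 2 without aged DH replicate 1 and 7 without aged DH replicate 3. Rpl3 read 10905, 11655, 12390.5, 12079.8 and 10324 in the aged DH rats and 13717, 13684, 12251, 12389 and 12517 in the aged EH rats. Of the DH rats 1 lay above the lowest EH rat, and the LFC of -0.17 (SE 0.052) missed the threshold (limma adjusted p = 0.0626). Without aged DH replicate 3 it was called (limma adjusted p = 0.0434), as it was with total-count scaling and with the replicate block. Rpl10 (LFC -0.12, SE 0.057, limma adjusted p = 0.234) and Rpl4 (LFC -0.08, SE 0.040, limma adjusted p = 0.259) were the next lowest structural members by p-value.

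Rps27l, a paralogue of Rps27 that p53 is known to induce, had the lowest p-value in aged DH. It read 239.8, 249, 209, 249 and 206 in the aged DH rats and 213, 176, 167, 167 and 201 in the aged EH rats, so 3 DH rats exceeded every EH rat and the other 2 lay within the EH range. Its LFC was 0.32 (SE 0.096, limma adjusted p = 0.0607), and the call passed without aged EH replicate 1 or without aged DH replicate 6 (lowest limma adjusted p = 0.0392). In adults Rps27l read 200.2, 198, 200.1, 189 and 189.7 in the adult DH rats and 189, 199, 194, 246 and 182 in the adult EH rats (LFC -0.04, limma adjusted p = 0.814). Rps27 itself read 2463, 2863, 2637, 3032 and 2465 in the aged DH rats and 2909.9, 2956, 2459, 2714 and 2632 in the aged EH rats, overlapping throughout (LFC -0.02, SE 0.064). Rps29 read 3329.7, 3849, 3467, 3753 and 3398 in the aged DH rats and 3709.6, 3491, 3070.3, 3275 and 3412 in the aged EH rats, also overlapping (LFC 0.07, SE 0.053). Rps15 had an aged DH LFC of -0.01 (SE 0.054). The highest and lowest large subunit LFCs were those of the low paralogues Rpl39l (0.29, SE 0.56) and Rpl10l (-0.33, SE 0.60), and the lowest small subunit LFC was that of Rps20 (-0.12, SE 0.080).

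**Figure D4:**
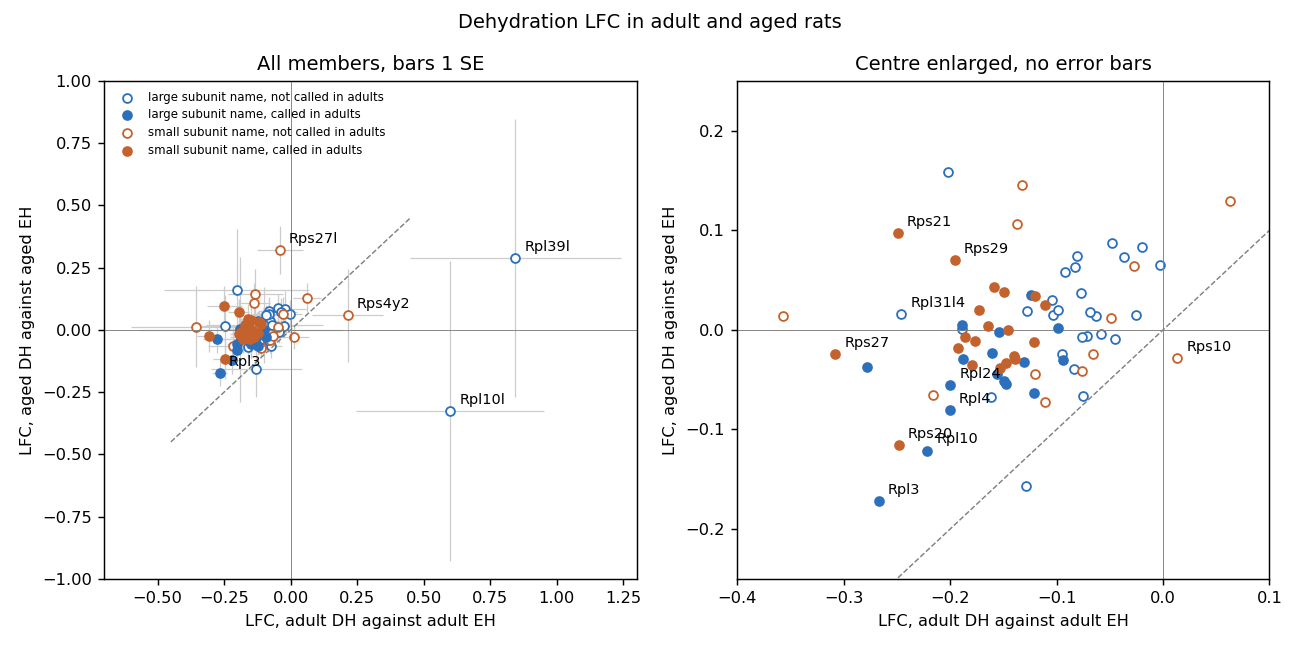
LFC in adult DH (horizontal) against LFC in aged DH (vertical) for the 80 members, with bars of 1 SE in the left panel and the centre enlarged on the right; the dashed line marks equal LFCs and filled points are members called in adult DH. Most points lie above the line, 75 of 80, and spread around 0 on the vertical axis.

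The difference between the ages was tested for each gene. The aged DH LFC was above the adult DH LFC for 75 of 80 members, against 49.5% of all genes tested, and for 65 of the 67 structural ones. No member passed the adjusted threshold in limma for this difference, nor did any of the 15326 genes tested, so a smaller response in aged rats was not established for any single member. At an unadjusted p under 0.05 there were 26 members, all with a higher LFC in aged rats, or 32.5%, beside 9.93% of all genes in either direction and 4.86% in this one. These members share libraries and move together, so their number is not a count of independent results. The number ran from 16, without aged DH replicate 2 or 5, to 42, without aged DH replicate 6; leaving out adult DH replicate 1 gave 17, aged DH replicate 1 gave 32 and aged EH replicate 1 gave 35. The medians of the difference were 0.10 for large and 0.14 for small subunit names, beside -0.002 over all genes tested. The 70 mitochondrial ribosomal proteins also lay mostly above 0 for this difference, 59 of 70, with a median of 0.08 and 9 higher at an unadjusted p under 0.05. All 6 oligodendrocyte markers lay above 0 too (median 0.30), 5 of them at an unadjusted p under 0.05, as did all 6 microglia markers (median 0.09). Of 6 magnocellular markers 4 lay below 0, and of 5 glutamatergic forebrain markers 4 did. The part of these markers' shifts in the difference for members was not tested.

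Among the lowest p-values for the difference were those of small subunit names and 1 Rpl36al gene. Rps29 differed by 0.27 (95% interval 0.12 to 0.41, limma adjusted p = 0.215), falling in adults with an aged LFC of 0.07. Rps27 differed by 0.28 (0.11 to 0.45, limma adjusted p = 0.263). Rpl36al ENSRNOG00000011494 differed by 0.24 (0.08 to 0.40, limma adjusted p = 0.294) and Rps21 by 0.35 (0.12 to 0.57, limma adjusted p = 0.295). For Rpl3, the difference of 0.09 had an interval of -0.03 to 0.22 (limma adjusted p = 0.648). Of the 37 members called in adults, 21 were among those at an unadjusted p under 0.05 for the difference and 11 had an aged DH LFC above 0. The 37 were chosen for a low adult DH LFC, which the difference subtracts, so the choice itself tends to raise the count of 21. That count is therefore not separate evidence of a smaller response in aged rats. Across the 80 members, which share their libraries, the adult and aged DH LFCs had a Spearman rho of 0.33.

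No ribosomal protein gene was called in ageing. None of the 80 was called between aged EH and adult EH rats in limma, with 4 at an unadjusted p under 0.05, against 5.99% of 15369 genes called and 20.3% at that unadjusted threshold. The medians were 0.003 for large and -0.02 for small subunit names, and 41 LFCs were below 0, against 49.9% of all genes. The highest LFCs were those of Rpl30, which autoregulates its own splicing in yeast (0.24, SE 0.12, limma adjusted p = 0.303), and Rps9 (0.20, SE 0.11, limma adjusted p = 0.323). The lowest were those of Rpl39l (-0.61, SE 0.55, limma adjusted p = 0.604) and Rps27l (-0.18, SE 0.10, limma adjusted p = 0.353). Rpl30 read 1701, 1573, 1399, 1540.3 and 1065 in the aged EH rats and 1589.5, 1109, 1226, 1188 and 1042 in the adult EH rats, and the groups overlapped. The 4 members under an unadjusted p of 0.05 were Rpl10 (0.12), Rplp1 (0.11), Rpl28 (0.08) and Rpl41 (-0.07), the last 2 named for this count after their values were seen. These 3 higher and 1 lower became 0 higher and 9 lower with total-count scaling, and likewise without aged EH replicate 1. They became 0 and 4 without aged EH replicate 2, 2 and 6 without adult EH replicate 6, 2 and 0 without aged EH replicate 4, and 1 and 0 without adult EH replicate 2 or 5. No direction in ageing is therefore read from these members.

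Genes that accompany the ribosomal proteins behaved in several ways in adult DH. Fau, whose product carries a ribosomal protein fused to a ubiquitin-like domain, was called lower (LFC -0.14, SE 0.042, limma adjusted p = 0.0421), as was the ubiquitin fusion gene Rps27a, itself a member (LFC -0.15, SE 0.037, limma adjusted p = 0.0153). Rack1, a scaffold on the small subunit, had an LFC of -0.07 and was not called. Of 14 other genes known to carry TOP motifs, 1 was called lower and 1 higher (median -0.04): Eif4b, an initiation factor (LFC -0.20, SE 0.038, limma adjusted p = 0.00422), and Pabpc1, the poly(A)-binding protein (LFC 0.11, SE 0.032, limma adjusted p = 0.0454). These 2 calls are 14.3% of the list, beside 12.7% of all genes called in either direction. At an unadjusted p under 0.05 in limma there were 10 of the 14, against 26.9% of all genes. Of these 10, 5 were lower and 5 higher. Eif4b was also lower in aged DH (LFC -0.15, SE 0.042, limma adjusted p = 0.0428). In ageing none of the 14 was called, and 13 lay above 0 (median 0.07). Of the 14, 6 (42.9%) were at an unadjusted p under 0.05 in limma, all higher, against 20.3% of all genes in either direction.

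The 32 ribosome biogenesis genes tested, among them Rpl7l1 and Rps19bp1 of the members, had a median of 0.03 in adult DH, with 4 called higher and 1 lower, where 7.67% of all genes were called higher. Nop56, of the box C/D small nucleolar particles, rose in adult DH (LFC 0.26, SE 0.035, limma adjusted p = 0.000288) and in aged DH (LFC 0.20, SE 0.054, limma adjusted p = 0.0369). Bysl (0.28, limma adjusted p = 0.003), Tsr1 (0.20, limma adjusted p = 0.0109) and Nop58 (0.16, limma adjusted p = 0.0127) rose in adult DH, and Ubtf, a transcription factor of ribosomal DNA, fell (-0.16, limma adjusted p = 0.0186). Tsr1 rose in aged DH too (0.14, limma adjusted p = 0.0336). Nop56 and Tsr1 were the 2 calls of the list there (6.25%), beside 7.29% of all genes called in either direction. None of the 32 genes was called in ageing, and 5 (15.6%) were at an unadjusted p under 0.05 in limma, against 20.3% of all genes.

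The 70 mitochondrial ribosomal proteins, which serve the separate ribosome of mitochondria, had medians of -0.03 in adult DH and 0.06 in aged DH. In adult DH 3 were called lower and 2 higher (7.14% in all), where 4.99% of all genes were called lower and 7.67% higher. In aged DH 1 was called lower and 2 higher (4.29% in all), where 3.25% of all genes were called lower and 4.05% higher. Genes described as ribosomal proteins or like proteins but outside the name rule, mostly pseudogene names and unnamed loci, were listed after the tables were read. Of 39 tested in adult DH 4 were called (10.3%), all lower, with a median of -0.12, where 4.99% of all genes were called lower. In aged DH none of 39 was called, with a median of -0.02, where 7.29% of all genes were called in either direction. Rpl37a-ps1 was the most abundant, with a mean of 5219 in adult EH rats, and fell in adult DH (LFC -0.17, SE 0.045, limma adjusted p = 0.025).

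**Figure D5:**
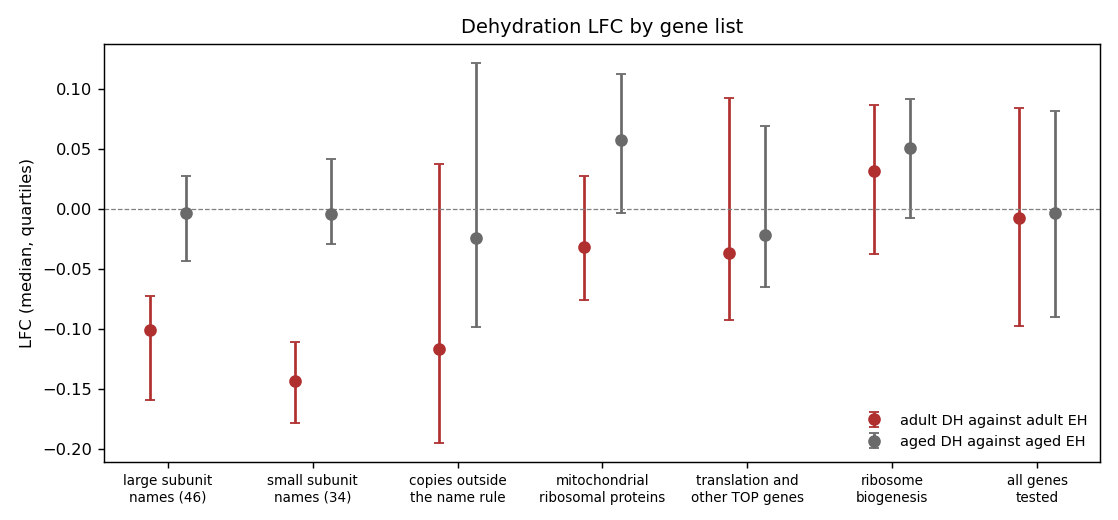
Median LFC with quartiles (vertical axis) in adult DH (red) and aged DH (grey) for large and small subunit names, ribosomal protein copies outside the name rule, mitochondrial ribosomal proteins, other TOP genes, ribosome biogenesis genes and all genes tested. The cytosolic large and small subunit names lie at -0.10 and -0.14 in adult DH and at -0.003 and -0.004 in aged DH, and biogenesis genes at 0.03 and 0.05.

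The 16 genes under the mean of 10 were Rpl3l, Rpl7a, 2 Rpl8 genes, Rpl30l1, 2 Rpl35a genes, Rpl35al1, another Rpl36al gene, Rpl37, Rplp2, Rps6, Rps15al4, 2 Rps19 genes and Rps19l1. Rpl7a, Rpl8, Rpl37, Rplp2, Rps6 and Rps19 encode universal parts of the ribosome and were at or near 0 here, while like-named loci of some of them carried counts. How reads were assigned among near-identical copies was not tested.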

How the data were processed

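Libraries of 20 rats, 5 in each of 4 groups, were grouped by GEO's labels. According to the labels and the study's methods, the authors checked reads with FastQC and aligned them to Rn6 with STAR. Counts per gene came from featureCounts and were normalised with DESeq2. The deposited tables hold these normalised counts (unit signal), scaled by size factors within each of 3 tables; the authors' fold changes and p-values in them were not used, and 0 per-sample columns were left unassigned. For adult DH rats and their controls, 100% of values came back as whole reads to within 0.1 of a read, and edgeR 4.0.16 and DESeq2 1.42.0 were run on those reads as alternatives.

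Genes with a mean of at least 10 in a comparison were tested on log2(value + 1) with limma 3.58.1 (R 4.3.3, trended moderation, Benjamini-Hochberg adjustment over all genes tested, threshold 0.05); the LFC is on that scale and understates changes of low genes. Every p-value compares separate rats. The difference between the ages was an interaction fitted across the adult DH and aged DH tables, each normalised separately. The methods were tested on simulated data. Members and lists were chosen with earlier results of these data known. Genes were named by a rule: each called member up to 15 per comparison by adjusted p, the highest and lowest LFC of each subunit, every paralogue, Rplp0, Rplp1, Rplp2 and Rpsa, and the 5 lowest p-values for the difference between the ages; called genes of related lists, and members that stood apart or illustrate a role, were added after values were seen. Values of 2 genes that the rule or lists take in are not reported here. Start sequences and their coordinates come from RefSeq on GRCr8, another build than that of the tables.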

Additional observations from a re-analysis of the deposited data

Results flagged for a closer look

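Within groups of 5 rats, 210 groups of values were examined for 1 rat far from the others, counting both uses of each EH group, and 6 had one, where chance gives about 1 in 20. Rpl10 was high in adult EH replicate 4, at 7622 normalised counts in the ageing table and 7299 in the adult DH table. Rps27l was high in adult EH replicate 5, at 257 and 246. In aged DH replicate 6, Rplp0 was low at 6621 and Rpl22l1 was low at 603. That rat also had the lowest share of counts on members among the aged DH rats, 1.09%.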

How the results depend on the processing

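The number of members called in adult DH was 37; it was 19 with the RNA integrity number as a covariate, 24 with moderation without a trend, 28 with the replicate block and between 26 and 35 with 1 rat left out. Under every alternative run each call was lower than EH. The other counts there were 31 with no filter on low values, 34 with TMM scaling, 35 with edgeR and 37 with DESeq2, and 43 with total-count scaling, which turned the calls over all genes from 1172 higher and 762 lower into 890 higher and 1161 lower. Over all genes the calls in adult DH went from 1934 to 1005 with the RNA integrity number and 987 with the replicate block; in aged DH they went from 1119 to 653 with the block and 671 without the trend, and in ageing from 921 to 516 without the trend, while total-count scaling turned the ageing calls from 414 higher and 507 lower into 302 higher and 747 lower. The 0 genes called for the difference between the ages became 1 with the block and 1 without the trend. The number of members called in aged DH, 0, became 1 with total-count scaling and 1 with the replicate block, and lay between 0 and 1 with 1 rat left out. In ageing and for the difference between the ages it was 0 in every alternative. Median LFCs moved by less than the SD between rats. Replicate numbers did not pair the rats: correlations of same-numbered rats' deviations ran from -0.08 to 0.16. Of the alternatives for the 33 named members, 39 lost a call and 6 gained one, and no called member turned its direction. Counted-read totals of the aged libraries could not be recovered from the normalised values, so count tests were run for adult DH alone.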
